A study of Homo sapiens with 42 samples.

Results

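Late-annotated human miRNAs with registry names from miR-4250 to miR-4813 were described in the small RNA libraries of 3 cell lines. A member is a mature miRNA entry with a name in that range, of any letter or arm, whose counts sum to 50 or more over the 34 fraction libraries used, leaving out miR-4454 and miR-4485-3p. The rule gave 96 members of 2657 entries in the table, and 399 further entries of the range stayed under 50 counts. The members were thus selected on their summed counts in these libraries, so their level there is given as a description. Just inside the limit were miR-4745-5p with 51 counts and miR-4429 with 50, and just outside it were miR-4701-3p and miR-4474-5p with 49 each. miR-4454, left out by the rule, held 2737 counts and miR-4485-3p held 586.

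The cells were A375 (melanoma), SHSY5Y (neuroblastoma) and HEK293 (embryonic kidney), established human lines, all wild type and untreated by the labels. Small RNA was sequenced from confluent and subconfluent cells of each line, separately from the nuclear and the cytoplasmic fraction, and from AGO1-4 immunoprecipitates (IP) of confluent and subconfluent HEK293 cells, in 3 libraries per group. The IP used the T6B peptide, which binds all AGO proteins, and its input is a total lysate by the labels and the study's results but the cytoplasmic fraction by its methods. HEK293 and A375 grew in DMEM and SHSY5Y in RPMI, so line and medium cannot be told apart where SHSY5Y is compared.

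The 34 fraction libraries held 9817 to 53775 counts (median 23407) and the 6 IP libraries 910753 to 1124959. The third confluent nuclear libraries of HEK293 and SHSY5Y held 39 and 31 counts and were left out, which leaves 2 libraries in each of these groups. In A375 confluent nuclei, replicate 1 had the largest share of the members, 9.47%, against 5.67 and 3.98% in replicates 2 and 3. The labels do not say that the fraction libraries of a group came from separate cultures, so the p-values measure the spread between these libraries, which may be technical. Each line was a pool with an index of its own, and within a pool every library had another 3′ adapter, so that pool and line, and adapter and group, cannot be told apart. As markers, miR-221-3p, miR-222-3p and miR-146a-5p were at 47000, 10800 and 9390 raw CPM (counts per 1000000 counts of the library or of the libraries pooled) in A375, against 2490, 509 and 330 in HEK293 and 5290, 542 and 30.1 in SHSY5Y. The melanocyte markers miR-211-5p, miR-509-3p and miR-514a-3p had at most 7 counts in any line, A375 included, and miR-204-5p was at 217 raw CPM in A375, against 239 in HEK293 and 21.1 in SHSY5Y. The neural miR-9-5p, miR-9-3p, miR-124-3p and miR-375 were at 2450, 728, 933 and 924 raw CPM in SHSY5Y. In HEK293 they were at 439, 422, 84.3 and 306. The neural miR-7-5p differed little, at 5590 in SHSY5Y, 4340 in HEK293 and 4880 in A375. The summed neural markers were at 12700 to 15400 in subconfluent SHSY5Y cytoplasm. In confluent SHSY5Y cytoplasm they were at 4360 to 4800, below confluent HEK293 (4850 to 7420) and A375 cytoplasm (5050 to 9110). The summed blood markers stayed at or under 634 in every library.

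The groups here are those that the deposited columns name. A summary table of the study exchanges 2 of the 4 groups in all 3 lines: its subconfluent cytoplasm has the values deposited as confluent nucleus, and its confluent nucleus those deposited as subconfluent cytoplasm. With those names each confluency comparison below becomes a comparison of fractions, and the reverse. Confluent against subconfluent cytoplasm would then have 22 members higher and 2 lower in SHSY5Y, 11 higher and 0 lower in HEK293, and 0 higher and 4 lower in A375. Nucleus against cytoplasm of confluent cells would have 0 higher and 29 lower in SHSY5Y, 16 higher and 2 lower in HEK293, and 5 higher and 6 lower in A375. The shares, highest groups, IP ratios and arm shares below follow the deposited names too and would change. Of the 210145 counts pooled as HEK293 cytoplasm for the IP ratios, the 110748 deposited as subconfluent cytoplasm would be nuclear. Which naming is right was not tested. The balance of members called in these SHSY5Y comparisons leans the same way under both, but single members can turn: miR-4750-5p and miR-4484 would be lower in confluent than in subconfluent SHSY5Y cytoplasm, by the values given below for the fractions.

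A miRNA hairpin is cut by Drosha and Dicer into a short duplex, and 1 strand of it is loaded into an AGO protein. The loaded strand pairs with target RNA mainly through its seed, here bases 2 to 8 counted from the 5′ end. Registry numbers follow the order of discovery, so high numbers came mostly from deep sequencing, and curated collections keep fewer of these late entries than of the early ones. The mature sequence of 89 of the 96 members was found in RefSeq (build GRCh38.p14). No sequence is given for miR-4508, miR-4286, miR-4433a-5p, miR-4750-3p, miR-4664-5p, miR-4769-3p and miR-4485-5p. The 8 members with the most counts are shown first, since most of the levels below rest on them, with the seed in capitals.
miR-4516: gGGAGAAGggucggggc
miR-4284: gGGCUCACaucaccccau
miR-4800-3p: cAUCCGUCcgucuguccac
miR-4741: cGGGCUGUccggaggggucggcu
miR-4449: cGUCCCGGggcugcgcgaggca
miR-4687-3p: uGGCUGUUggagggggcaggc
miR-4448: gGCUCCUUggucuaggggua
miR-4787-5p: gCGGGGGUggcggcggcauccc

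RefSeq places miR-4516 at chr16:2133120-2133136 on the plus strand, where no named gene lies on the same strand. It places miR-4284 at chr7:73711327-73711344, also outside named genes of that strand. miR-4800-3p lies in an exon of MXD4 (chr4:2250091-2250109, minus strand), miR-4741 in an exon of RBBP8 (chr18:22933407-22933429) and miR-4449 in an exon of DANCR, a long non-coding RNA (chr4:52712720-52712741). miR-4687-3p lies in an exon of STIM1 (chr11:3856113-3856133), miR-4787-5p in an exon of DOCK3 (chr3:50675093-50675114) and miR-4448 in an intron of RPSAP31 (chr3:183886860-183886879). Of the 89 members with a sequence, 24 lie in exons, 27 in introns and 38 outside named genes of their strand. Annotated genes without a gene symbol, and miRNA genes themselves, were not searched. The sequence of miR-4284 is also found exactly in MT-TF, the mitochondrial phenylalanine tRNA, and reads of the 2 cannot be told apart by this sequence. The transcripts searched did not include nuclear tRNAs, so a match of any member to these was not tested. In the hg38 genome 21 members (23.6%) match more than 1 place exactly, up to 6, among them miR-4516 with 4, and how reads with several matches were counted is not given in the sources used here.

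The members were GC-rich and often short. Their GC content had a median of 66.7% (range 27.3 to 94.7%), against 54.5% in the 547 other entries with 50 or more counts and a sequence. The let-7 and miR-1 to miR-500 entries had a median of 47.6%, miR-6715 to miR-6895 had 70.0%, and entries of the members' own name range under 50 counts had 50%. The share of G had a median of 38.1% against 27.3% in the others. The run GGGG was found in 22 members (24.7%) and in 80 others (14.6%), or in 16.0% of all entries with 50 or more counts. A length of 17 or 18 bases was found in 17 members (19.1%) against 17 others (3.11%), and in 0 of the 243 let-7 and low-numbered sequences. Entries of the members' own name range under 50 counts had nearly the same share as the members, 68 of 360 sequences (18.9%). U, the first base that AGO proteins favour, opened 25.8% of members against 38.8% of the others, and G opened 23.6% against 13.9%. These are descriptions of the chosen entries.

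Among the 89 members with a sequence, none shares a seed with another. Of these members, 5 share a seed with another entry of 50 or more counts, and these are shown because their seeds tie them to other miRNAs. miR-4465 has the seed of miR-26a-5p and miR-26b-5p, miR-4429 that of miR-320b and miR-320c, miR-4492 that of miR-762, miR-4488 that of miR-1237-5p and miR-4507 that of miR-3940-5p.
miR-4465: cUCAAGUAgucugaccagggga
miR-4429: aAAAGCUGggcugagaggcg
miR-4492: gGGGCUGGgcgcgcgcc
miR-4488: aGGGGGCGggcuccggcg
miR-4507: cUGGGUUGggcugggcuggg

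A few members held most of the counts. Of the 54878 counts of the members in the fraction libraries, miR-4516 held 11976 (21.8%), miR-4284 held 7403 and miR-4800-3p held 4512, together 43.5%. The next were miR-4741 with 1979 counts, miR-4449 with 1727, miR-4687-3p with 1603, miR-4448 with 1600 and miR-4787-5p with 1565. The top 8 held 59% and the top 20 held 78%. Of the members, 12 had 1000 or more counts, 43 had 100 to under 1000 and 41 had fewer than 100, so that for most members a library holds only a few counts.

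The share of the library counts that the members took was highest in SHSY5Y cytoplasm and lowest in the IP. In SHSY5Y, the members took 18.6 to 20.5% of confluent and 8.62 to 10.3% of subconfluent cytoplasmic counts (medians 19.5 and 9.63%, 3 libraries each). In SHSY5Y nuclei the share was 5.16 and 6.91% in the 2 confluent libraries and 1.87, 2.24 and 2.49% in the subconfluent ones. In both fractions the confluent and subconfluent libraries did not overlap. In HEK293 cytoplasm the order was the other way, with 3.75 to 4.74% in confluent and 6.52 to 7.57% in subconfluent libraries. HEK293 nuclei had 0.959 and 1.52% in confluent cells and 1.51, 1.91 and 1.94% in subconfluent cells, which overlap. In A375 the cytoplasmic shares overlapped, at 4.10 to 5.23% in confluent and 3.29 to 5.77% in subconfluent cells. A375 nuclei had 9.47, 5.67 and 3.98% in confluent replicates 1, 2 and 3 and 2.24 to 2.53% in subconfluent cells. Confluent replicate 1 also had the lowest share of let-7 and miR-1 to miR-500 counts of the A375 libraries, 48.7%, and counts of members called without it are given with the A375 results. In the IP the members took 0.0875 to 0.115% in confluent and 0.0520 to 0.0634% in subconfluent cells. The share of a member is relative to the other miRNAs of its library, and in bulk samples fewer cells that express it and less of it per cell cannot be told apart.

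**Figure D1:**
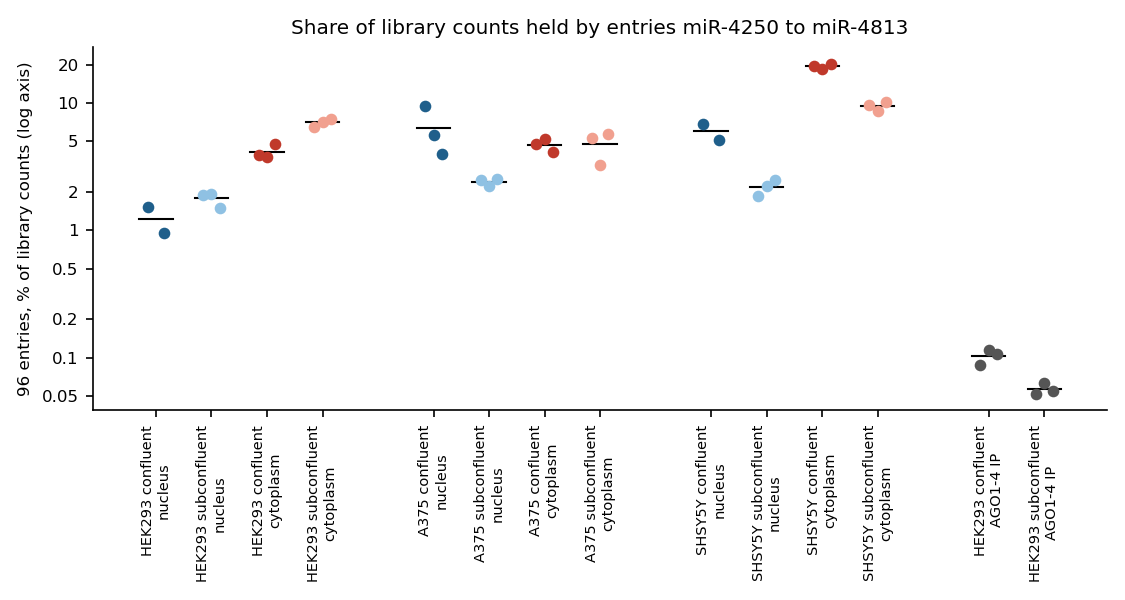
Share of the library counts held by the 96 members, in percent on a log axis, for each library used (points) with the group mean (line). Confluent SHSY5Y cytoplasm lies at 18.6 to 20.5%, above all other groups, and the 6 IP libraries lie between 0.0520 and 0.115%.

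Most members had their highest group mean in a cytoplasmic group, 76 of 96 (79.2%), against 58.0% of the 617 other entries with values in all lines, 35.5% of let-7 and low-numbered entries and 91.4% of miR-6715 to miR-6895. The group with the highest mean was confluent SHSY5Y cytoplasm for 31 members, subconfluent HEK293 cytoplasm for 19, subconfluent A375 cytoplasm for 13, confluent HEK293 cytoplasm for 12 and confluent A375 nucleus for 10. The remaining 11 members were spread over 5 groups, and no member had its highest mean in confluent A375 cytoplasm or subconfluent SHSY5Y nuclei. In what follows, CPM without the word raw are scaled by TMM (edgeR), within the fit of a line or of the IP unless said otherwise. Log2 fold changes with standard errors come from edgeR's quasi-likelihood test, with Benjamini-Hochberg adjustment over all entries tested and a threshold of 0.05. Entries with 10 or more counts in 3 or more libraries of a fit were tested, which left 39 members in HEK293, 22 in A375 and 40 in SHSY5Y. A member that passes this filter only through the group where it is high had to differ, so the counts of members called describe the tested members and not all 96. For a named member that reached the minimum in fewer than 3 libraries outside the group where it was higher, values and fold changes are given as a description, with no p.

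**Figure D2:**
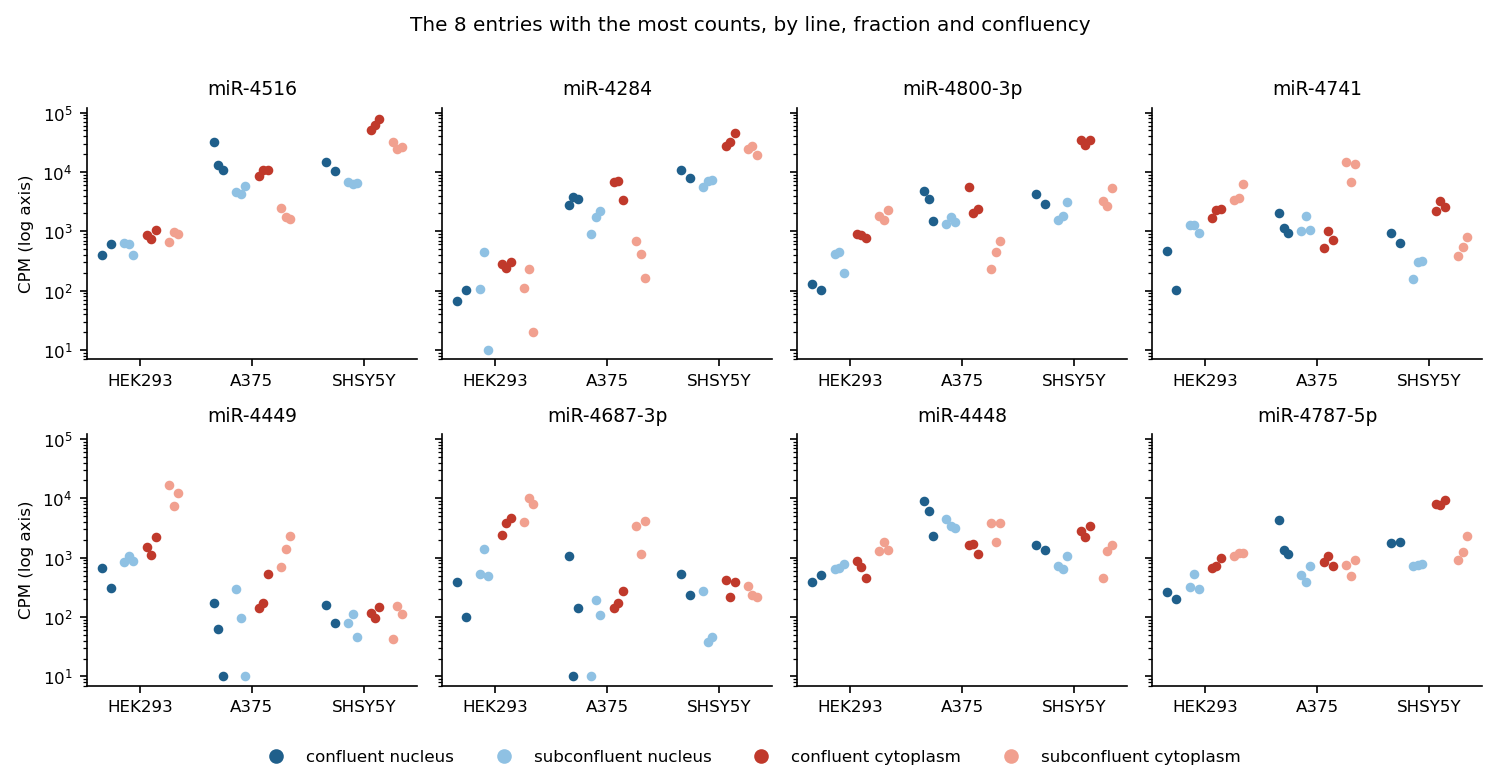
CPM on a log axis of the 8 members with the most counts, in each of the 34 fraction libraries, by line, fraction and confluency. Libraries under 10 CPM are drawn at 10. miR-4516 lies lowest in HEK293, and miR-4449 lies highest in subconfluent HEK293 cytoplasm. miR-4284 is low in HEK293 and overlaps there with subconfluent A375 cytoplasm.

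In SHSY5Y cytoplasm most of the tested members were higher at confluence. Of the 40 tested, 29 were higher and 0 lower with confluence by edgeR, where 33.6% of all 348 entries tested were higher and 25.3% lower. Of the members 1 was lower at an unadjusted p under 0.05, and DESeq2 called 0 lower. The median log2 fold change of the members was 1.30, against -0.02 for all entries tested. The still later miR-6715 to miR-6895 had 27 of 32 higher and 0 lower, and let-7 and low-numbered entries had 3 of 158 higher and 71 lower. Across the entries tested, GC content went with the fold change (Pearson r of 0.62 over 308 entries and 0.42 over 37 members, which share the same libraries), and its part in the result was not tested.

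miR-4800-3p had the largest rise. It reached 34451, 28487 and 33913 CPM in confluent SHSY5Y cytoplasm, against 3274, 2659 and 5446 CPM in subconfluent cytoplasm (log2 fold change 3.07, standard error 0.27, adjusted p = 3.2e-11). Every confluent library lay far above every subconfluent one, and confluent cytoplasm was also far above the nuclei of either confluency. miR-4507, a 20-base entry with the seed of miR-3940-5p, was at 680, 600 and 678 CPM in confluent and 126, 0 and 111 CPM in subconfluent cytoplasm (log2 fold change 3.02). Its counts were 56 against 9, and it is among the 7 of the 29 members called that passed the count filter only through confluent cytoplasm. miR-4787-5p rose with 7955, 7801 and 9496 CPM in confluent against 923, 1239 and 2344 CPM in subconfluent cytoplasm (log2 fold change 2.44, standard error 0.29, adjusted p = 1.5e-08).

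The 2 most counted members moved less. miR-4516 was at 51809, 61332 and 77225 CPM in confluent and 31434, 24397 and 25918 CPM in subconfluent cytoplasm (log2 fold change 1.22, standard error 0.21, adjusted p = 9.6e-06). miR-4284 was at 27856, 32056 and 45540 CPM against 24342, 27650 and 19051 CPM (log2 fold change 0.57, standard error 0.22, adjusted p = 0.027). For both the groups did not overlap, though the lowest confluent and the highest subconfluent library of miR-4284 lay next to each other. miR-4741, miR-4448 and miR-4684-3p rose as well, by 2.15, 1.24 and 1.33. Over the same libraries the summed neural markers were at 4360 to 4800 raw CPM in confluent and 12700 to 15400 in subconfluent cytoplasm. The let-7 and low-numbered entries took 28.4 to 34.7% of confluent and 57.9 to 67.6% of subconfluent cytoplasmic counts, and the part of these shifts in the result was not tested.

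In SHSY5Y nuclei 19 of 40 members were higher and 1 was lower at confluence, where 17.8% of all entries tested were higher and 22.1% lower. Of these 19, 1 passed the count filter only through confluent nuclei. The median log2 fold change was 1.23 for the members and 0.04 for all entries, and miR-6715 to miR-6895 had 13 of 32 higher and 0 lower. Confluent nuclei have 2 libraries, of 17488 and 11160 counts, and the count of members called fell to 3 without replicate 1 and to 13 without replicate 2 of the confluent nuclei. The summed neural markers were at 5320 to 6000 raw CPM in confluent and 11800 to 15400 in subconfluent nuclei, and their part was not tested.

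miR-4750-5p was the member with the largest rise in nuclei. It had 2356 and 1990 CPM in confluent and 518, 337 and 205 CPM in subconfluent SHSY5Y nuclei (log2 fold change 2.69, standard error 0.40, adjusted p = 2.9e-06), with no overlap. miR-4466 had 419 and 239 CPM in confluent and 159, 0 and 68.2 CPM in subconfluent nuclei (log2 fold change 2.16, standard error 0.77, adjusted p = 0.025). That call rests on 11 counts against 7 and was lost without either confluent library (adjusted p = 0.37 without replicate 1 and 0.051 without replicate 2) and without subconfluent nuclear replicate 2 or 3 (0.071 and 0.063), and without the count filter (0.36). miR-4455 was the member that was lower, with 157 and 159 CPM in confluent and 637, 337 and 705 CPM in subconfluent nuclei (log2 fold change -1.83, standard error 0.62, adjusted p = 0.019). It had 5 counts against 56, and its call was lost without confluent replicate 1 (adjusted p = 0.19), confluent replicate 2 (0.12), subconfluent replicate 1 (0.050) or subconfluent replicate 3 (0.051). It was lost too with DESeq2 (adjusted p = 0.090), library totals (0.10) and scaling by the entries detected in the IP (0.12).

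The rise of miR-4800-3p differed between the SHSY5Y fractions. In nuclei it had 4189 and 2865 CPM in confluent and 1554, 1834 and 3069 CPM in subconfluent cells, which overlap. The log2 confluency effect in the nucleus minus that in the cytoplasm was -2.37 (standard error 0.42, adjusted p = 0.00046 from edgeR's interaction test).

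**Figure D3:**
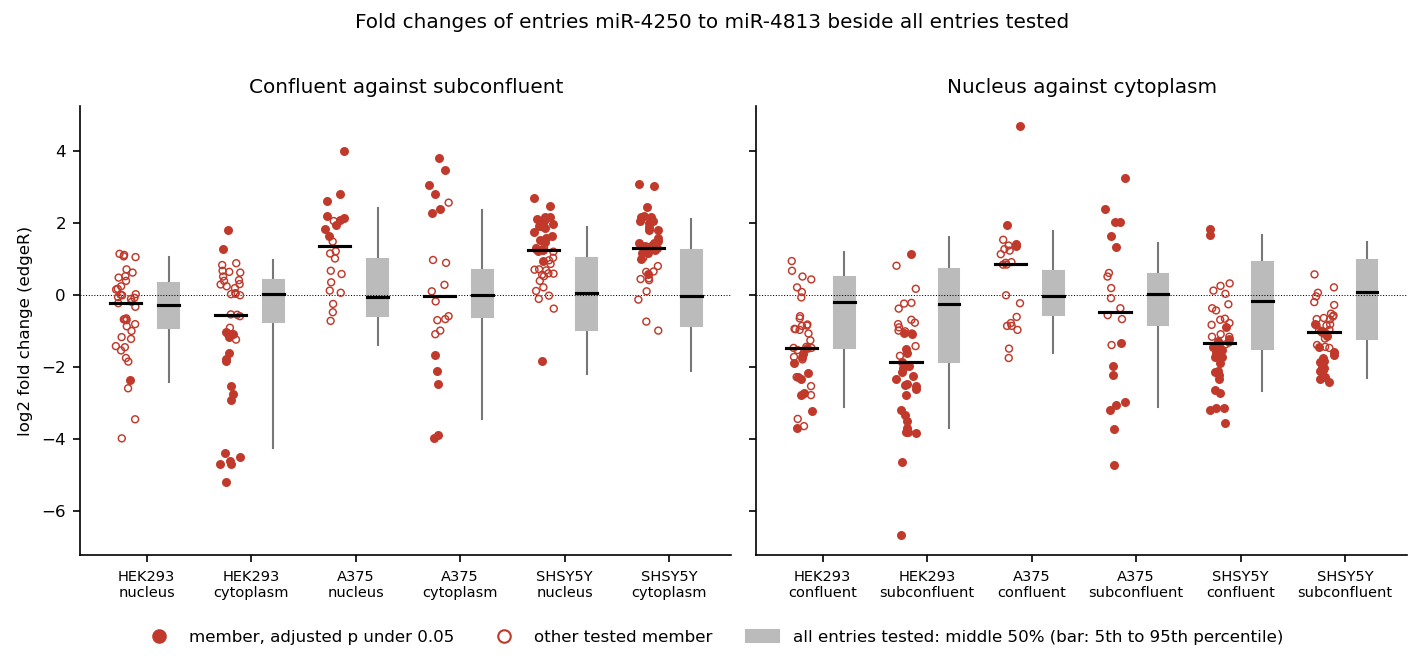
Log2 fold changes of the members tested (red; filled where the adjusted p is under 0.05, with their median as a line) beside the spread of all entries tested (grey box from the 25th to the 75th percentile, whisker from the 5th to the 95th, line at the median), for confluent against subconfluent cells and for nucleus against cytoplasm. The member medians lie at 1.30 and 1.23 for confluency in SHSY5Y cytoplasm and nuclei, and below 0 for localization in HEK293 and SHSY5Y.

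In A375 cytoplasm the members moved both ways. Of 22 tested, 6 were higher and 5 lower in confluent cytoplasm, where 14.3% of all 265 entries tested were higher and 14.0% lower. The member median was -0.04 and that of all entries 0.00, and miR-6715 to miR-6895 had 9 of 27 higher and 6 lower. miR-4284 had 6705, 6996 and 3376 CPM in confluent and 691, 407 and 161 CPM in subconfluent cytoplasm (log2 fold change 3.81, standard error 0.50, adjusted p = 6.6e-07). miR-4508 had 1554, 2048 and 1576 CPM in confluent and 154, 90.4 and 215 CPM in subconfluent cytoplasm (log2 fold change 3.47, standard error 0.56, adjusted p = 1.8e-05). miR-4492, miR-4800-3p, miR-4516 and miR-4687-5p rose too, by 3.06, 2.80, 2.37 and 2.26.

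Other members were lower. miR-4741 had 518, 995 and 720 CPM in confluent A375 cytoplasm, against 14969, 6732 and 13789 CPM in subconfluent cytoplasm (log2 fold change -3.97, standard error 0.45, adjusted p = 3.9e-08). miR-4687-3p had 144, 171 and 270 CPM against 3378, 1175 and 4131 CPM (log2 fold change -3.89), and it passed the count filter only through subconfluent cytoplasm. Neither overlapped between the groups. miR-4687-3p and miR-4687-5p are the 2 arms of 1 hairpin, and in A375 cytoplasm the 3p arm was lower while the 5p arm rose, with 1612, 967 and 1306 CPM in confluent against 384, 226 and 215 CPM in subconfluent cells. miR-4668-5p fell by 1.66 on the log2 scale. miR-4449 had a log2 fold change of -2.48 and passed the filter only through subconfluent cytoplasm.

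In A375 nuclei 9 of 22 members were higher and 0 lower at confluence by edgeR, where 18.9% of all entries tested were higher and 6.04% lower. At an unadjusted p under 0.05, 0 members were lower, and DESeq2 also called 0 lower. The median was 1.35 for the members and -0.07 for all entries. The miR-6715 to miR-6895 entries had 13 of 27 higher and 0 lower, with a median of 1.38. Without confluent nuclear replicate 1 the count of members called was 4. Of the 9 called with all libraries, 2 passed the count filter only through confluent nuclei. miR-4327 had 6963, 1924 and 2302 CPM in confluent and 201, 194 and 275 CPM in subconfluent A375 nuclei (log2 fold change 4.00), and it passed the count filter only through confluent nuclei. miR-4508 had 7260, 3724 and 2302 CPM against 502, 582 and 770 CPM (log2 fold change 2.81, standard error 0.48, adjusted p = 0.00013). In both, replicate 1 was the highest confluent library, and all confluent libraries lay above all subconfluent ones. For some members tested in A375 the confluency effect differed between fractions, by edgeR's interaction test. The effect in the nucleus minus that in the cytoplasm was 5.94 for miR-4687-3p, 4.09 for miR-4741 (adjusted p = 2.3e-05) and 3.59 for miR-4707-5p (0.0017). It was 2.20 for miR-4484 (0.032), 1.76 for miR-4448 (0.048) and -2.80 for miR-4284 (0.0036). The share of all entries that passed this test is not given here, so these are results for single members. miR-4687-3p entered this test only through subconfluent cytoplasm.

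In HEK293 cytoplasm more members were called lower than higher at confluence. Of 39 tested, 2 were higher and 16 lower in confluent cytoplasm, where 6.38% of all 345 entries tested were higher and 22.0% lower. Log2 fold changes were negative for 22 members and positive for 17, with a median of -0.55 for the members and 0.02 for all entries. Of the 16 called lower, 9 passed the count filter only through subconfluent cytoplasm. The still later miR-6715 to miR-6895 had 4 of 28 higher and 9 lower, and let-7 and low-numbered entries 7 of 151 higher and 11 lower. Without subconfluent cytoplasmic replicate 1, 2 or 3 the members called were 9 of 31, 8 of 29 and 8 of 30 that still passed the count filter.

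A few members had most of their HEK293 counts in subconfluent cytoplasm. miR-4304, a 17-base entry in an intron of PITPNM2, had 23.4, 48.5 and 77.4 CPM in confluent and 2141, 1727 and 1645 CPM in subconfluent HEK293 cytoplasm (log2 fold change -5.18). In nuclei its counts were 0 in confluent and 3 in subconfluent cells, and in A375 and SHSY5Y it had a count in 4 of 23 libraries. miR-4684-3p, in an intron of EPHB2, had 3 counts in confluent and 95 in subconfluent HEK293 cytoplasm, or 23.4, 48.5 and 0 CPM against 923, 686 and 863 CPM (log2 fold change -4.70). By total counts it was lower in confluent cytoplasm by a ratio of 28.4 (95% counting interval 9.43 to 140). Both passed the count filter only through subconfluent cytoplasm. miR-4449 was at 1498, 1116 and 2245 CPM in confluent and 16535, 7442 and 12341 CPM in subconfluent cytoplasm (log2 fold change -2.92, standard error 0.32, adjusted p = 6.5e-07). In all of these the confluent libraries lay below all subconfluent ones.

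The 2 members called higher in HEK293 cytoplasm were miR-4492 and miR-4286. miR-4492 had 889, 607 and 1161 CPM in confluent and 148, 229 and 341 CPM in subconfluent cytoplasm (log2 fold change 1.79), and passed the count filter only through confluent cytoplasm. miR-4286 had 2059, 2378 and 2554 CPM in confluent and 997, 991 and 883 CPM in subconfluent cytoplasm (log2 fold change 1.28, standard error 0.29, adjusted p = 0.0015). Neither member overlapped between the groups.

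In HEK293 nuclei 0 members were higher and 1 was lower at confluence by edgeR, where 0.0% of all entries tested were higher and 1.16% lower. At an unadjusted p under 0.05, 3 members passed, of which 0 were higher, and DESeq2 also called 0 higher. The median was -0.23 for the members and -0.27 for all entries. The member called, miR-4668-5p, had 198 and 709 CPM in confluent and 3479, 1354 and 1839 CPM in subconfluent HEK293 nuclei (log2 fold change -2.37, standard error 0.55, adjusted p = 0.030). With 10 counts against 88, the call was lost without subconfluent nuclear replicate 1 (adjusted p = 0.067), confluent nuclear replicate 1 (0.27) or confluent nuclear replicate 2 (0.076). Its confluency effect in the nucleus minus that in the cytoplasm was -2.56 (adjusted p = 0.033 from edgeR's interaction test), and that of miR-4707-5p was 2.92 (0.046).

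The lines differed in which way the same member went. miR-4741 fell at confluence in the cytoplasm of HEK293 and A375, by 1.08 and 3.97 on the log2 scale, and rose by 2.15 in that of SHSY5Y. In HEK293 it had 1661, 2281 and 2400 CPM in confluent and 3396, 3683 and 6201 CPM in subconfluent cytoplasm, and in SHSY5Y 2159, 3190 and 2616 CPM against 378, 542 and 794 CPM. miR-4800-3p fell by 1.17 in HEK293 cytoplasm, with 889, 874 and 774 CPM in confluent and 1845, 1549 and 2328 CPM in subconfluent cells, and rose by 2.80 in A375 and 3.07 in SHSY5Y. miR-4448 had -1.09 in HEK293 and 1.24 in SHSY5Y. miR-4684-3p had -4.70 in HEK293, with no p, and 1.33 in SHSY5Y, with 2957, 3569 and 3488 CPM in confluent and 755, 1007 and 2068 CPM in subconfluent SHSY5Y cytoplasm. The differences between the lines were not tested.

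Between the fractions, the members lay on the cytoplasmic side in HEK293 and SHSY5Y. In subconfluent HEK293 nuclei 1 of 39 was higher and 24 were lower, relative to the cytoplasm, where 19.4% of all entries tested were higher and 34.8% lower, with medians of -1.85 for the members and -0.24 for all entries. In confluent HEK293 cells 0 were higher and 11 lower by edgeR, against 5.8% and 16.5% of all entries, with medians of -1.47 and -0.19. Of these 11, 1 passed the count filter only through confluent cytoplasm. At an unadjusted p under 0.05, 0 were higher, and DESeq2 called 0 higher. The let-7 and low-numbered entries went the other way, with 55 of 151 higher and 13 lower in subconfluent and 18 higher and 2 lower in confluent HEK293 nuclei. The miR-6715 to miR-6895 entries lay on the cytoplasmic side too, with 0 higher and 19 of 28 lower in subconfluent and 12 lower in confluent HEK293 nuclei. Without subconfluent cytoplasmic replicate 1, 2 or 3, 15 members were called in subconfluent cells each time, and without confluent nuclear replicate 2, 5 were called in confluent cells.

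Among subconfluent HEK293 cells the lowest members in the nucleus were miR-4501 and miR-4304. miR-4501, in an intron of HS6ST3, had 0 counts in the 3 nuclear libraries and 480, 508 and 421 CPM in the cytoplasm, where it had 54 counts, so that it was at least 7.75-fold lower in the nucleus (floor of 3 counts over the group). miR-4304 had 0, 75.2 and 99.4 CPM in the nucleus and 2141, 1727 and 1645 CPM in the cytoplasm, a ratio of 29.8 by counts (95% counting interval 10.1 to 146). Both are among the 9 of the 24 members called lower that passed the count filter only through subconfluent cytoplasm. miR-4668-5p was the member that was higher in the nucleus, with 3479, 1354 and 1839 CPM against 738, 1143 and 1043 CPM in the cytoplasm (log2 fold change 1.13, standard error 0.37, adjusted p = 0.015). Its call was lost without subconfluent cytoplasmic replicate 1 (adjusted p = 0.084) or 3 (0.069) or nuclear replicate 1 (0.11), with scaling by the entries detected in the IP (0.18) and without the count filter (0.086). In confluent cells miR-4687-3p had 396 and 101 CPM in the nucleus and 2387, 3786 and 4683 CPM in the cytoplasm (log2 fold change -3.69, standard error 0.63, adjusted p = 0.00055). miR-4634 had 198 and 304 CPM against 1685, 1917 and 3290 CPM (log2 fold change -3.21, standard error 0.60, adjusted p = 0.00055). The nuclear libraries of both members lay below every cytoplasmic one.

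In subconfluent SHSY5Y cells 0 of 40 members were higher and 19 lower in the nucleus by edgeR, where 32.5% of all entries tested were higher and 28.4% lower. At an unadjusted p under 0.05, 0 were higher, and DESeq2 called 0 higher. In confluent cells 2 were higher and 22 lower, against 24.7% and 30.2% of all entries. Of these 22, 5 passed the count filter only through confluent cytoplasm. The medians of the members were -1.03 and -1.35, and those of all entries 0.09 and -0.18. The miR-6715 to miR-6895 entries had 0 higher in both, with 20 of 32 lower in subconfluent and 26 in confluent cells. Scaling moved these counts more than those of the other comparisons: with library totals, where the median of all entries went to -0.50, 31 members were lower in subconfluent nuclei. miR-4684-3p had 159, 225 and 318 CPM in nuclei and 755, 1007 and 2068 CPM in the cytoplasm of subconfluent cells (log2 fold change -2.41, standard error 0.40, adjusted p = 1.1e-05). miR-4443 had 199, 112 and 182 CPM against 755, 800 and 978 CPM (log2 fold change -2.33, standard error 0.38, adjusted p = 1.1e-05). These 2 members had no overlap between the fractions.

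In confluent SHSY5Y cells miR-4800-3p had 4189 and 2865 CPM in nuclei and 34451, 28487 and 33913 CPM in the cytoplasm (log2 fold change -3.18, standard error 0.34, adjusted p = 3.4e-09). miR-4638-5p had 1 count in the nuclei and 35 in the cytoplasm, a ratio of 11.9 (95% counting interval 1.99 to 482), and passed the count filter only through confluent cytoplasm. The 2 members on the nuclear side were miR-4750-5p and miR-4484. miR-4750-5p, from an exon of TBC1D17, had 2356 and 1990 CPM in nuclei and 769, 505 and 533 CPM in the cytoplasm (log2 fold change 1.84, standard error 0.38, adjusted p = 0.00017). miR-4484 had 1362 and 955 CPM against 384, 442 and 242 CPM (log2 fold change 1.67, standard error 0.44, adjusted p = 0.0022), lost without confluent nuclear replicate 1 (adjusted p = 0.081), with scaling by the entries detected in the IP (0.094) and without the count filter (0.17).

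In A375 the members lay on both sides. In subconfluent cells 6 of 22 were higher and 8 lower in the nucleus, where 4.53% of all entries tested were higher and 15.5% lower, and in confluent cells 4 were higher and 0 lower by edgeR, against 7.92% and 4.53%. In confluent cells 1 member was lower at an unadjusted p under 0.05, and DESeq2 called 0 lower. Of the 8 lower in subconfluent nuclei, 3 passed the count filter only through subconfluent cytoplasm. Of the 4 higher in confluent nuclei, 1 passed it only through those nuclei. The medians were -0.47 and 0.87 for the members and 0.03 and -0.04 for all entries, and miR-6715 to miR-6895 had 1 of 27 higher and 7 lower in subconfluent and 5 higher and 2 lower in confluent cells. Leaving out 1 library moved the counts of members called. In subconfluent cells they were 9, 9 and 4 without cytoplasmic replicate 1, cytoplasmic replicate 2 and nuclear replicate 3, and in confluent cells 1, 2 and 2 without cytoplasmic replicate 1, cytoplasmic replicate 2 and nuclear replicate 1.

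In subconfluent A375 cells miR-4687-3p had 0, 194 and 110 CPM in nuclei and 3378, 1175 and 4131 CPM in the cytoplasm (log2 fold change -4.71). miR-4449 had 301, 96.9 and 0 CPM against 691, 1401 and 2361 CPM (log2 fold change -3.72). Both passed the count filter only through subconfluent cytoplasm. On the nuclear side, miR-4492 had 603, 582 and 1100 CPM in nuclei and 76.8, 136 and 215 CPM in the cytoplasm (log2 fold change 2.37, standard error 0.60, adjusted p = 0.0052), lost without nuclear replicate 3 (adjusted p = 0.070). These groups did not overlap. miR-4508 was higher in nuclei by 2.03 (adjusted p = 0.021), and its call was lost without cytoplasmic replicate 1 (0.064), cytoplasmic replicate 2 (0.15) or nuclear replicate 3 (0.12) and with scaling by the entries detected in the IP (0.067). In confluent A375 cells miR-4327 was at 6963, 1924 and 2302 CPM in nuclei and 144, 142 and 135 CPM in the cytoplasm (log2 fold change 4.68), and it passed the count filter only through these nuclei. miR-4448 was at 9001, 6082 and 2302 CPM against 1612, 1706 and 1170 CPM (log2 fold change 1.95, standard error 0.43, adjusted p = 0.0036), lost without confluent cytoplasmic replicate 1 (adjusted p = 0.053). Both were above all cytoplasmic libraries in every nuclear library.

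Between the lines, levels were scaled over the 34 libraries together, and 59 members of 478 entries were tested with both fractions and confluencies pooled. In A375 against HEK293, 28 members were higher and 16 lower, where 33.3% of all entries tested were higher and 32.6% lower. In SHSY5Y against HEK293, 30 were higher and 17 lower, against 37.9% and 33.1%. In A375 against SHSY5Y, 9 were higher and 21 lower, against 22.8% and 32.8%. Some of the members called passed the count filter only through the line where they were higher. They were 2 of the 28 higher and 7 of the 16 lower in A375 against HEK293. In SHSY5Y against HEK293 they were 12 of the 30 higher and 7 of the 17 lower. In A375 against SHSY5Y they were 0 of the 9 higher and 9 of the 21 lower. The member medians were 0.79, 0.86 and -0.14, and those of all entries 0.03, 0.05 and -0.17. In the same order, miR-6715 to miR-6895 had 16, 27 and 6 of 47 higher and 5, 8 and 19 lower. Line and sequencing index cannot be told apart in these comparisons.

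miR-4516 set SHSY5Y and A375 apart from HEK293, and miR-4284 set SHSY5Y apart from HEK293. miR-4516 averaged 9381 ± 8305 CPM in A375 (SD, n = 12) and 643 ± 217 CPM in HEK293 (SD, n = 11) (log2 fold change 3.53, standard error 0.18, adjusted p = 8.8e-22), with no overlap. In SHSY5Y it averaged 28992 ± 22676 CPM (SD, n = 11). miR-4284 averaged 20021 ± 12249 CPM in SHSY5Y and 156 ± 124 CPM in HEK293 (SD, n = 11 each) (log2 fold change 6.86, standard error 0.29, adjusted p = 6e-25), and 3022 ± 2641 CPM in A375 (SD, n = 12). For miR-4284 A375 overlapped HEK293, with the lowest A375 library at 163 CPM and the highest HEK293 library at 369 CPM. The SDs pool the confluencies and fractions of a line. miR-4657 averaged 555 ± 310 CPM in SHSY5Y and 12 ± 17.8 CPM in HEK293 (SD, n = 11 each) (log2 fold change 5.53), and it passed the count filter only through SHSY5Y.

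Other members were higher in HEK293. miR-4449 averaged 108 ± 41.0 CPM in SHSY5Y and 3702 ± 5000 CPM in HEK293 (SD, n = 11 each) (log2 fold change -3.79, standard error 0.34, adjusted p = 1.6e-13). miR-4787-3p averaged 46.9 ± 48.1 CPM in SHSY5Y and 529 ± 168 CPM in HEK293 (SD, n = 11 each) (log2 fold change -4.10), and it passed the filter only through HEK293. The libraries of the 2 lines did not overlap for either member. The other arm of that hairpin, miR-4787-5p, went the other way, with 3225 ± 3194 CPM in SHSY5Y and 621 ± 361 CPM in HEK293 (SD, n = 11 each) (log2 fold change 2.13, standard error 0.24, adjusted p = 9.1e-11).

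Over the 34 libraries the most counted members fell into a few patterns, given as Pearson correlations of log2 CPM that share libraries and depth. miR-4516 went most closely with miR-4284 and miR-4508 (r = 0.95 each), miR-4800-3p with miR-4787-5p (0.90), miR-4449 with miR-4687-3p (0.83), miR-4741 with miR-4707-5p (0.75) and miR-4448 with miR-4633-5p (0.74). miR-4284 and miR-4449 went in opposite directions (r = -0.74). Over the 190 pairs of the 20 most counted members, r had a median of 0.29 and a range of -0.74 to 0.95, and no single pattern held for all of them.

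The AGO1-4 IP held few of the members. Of the 96, 60 (62.5%) had 0 counts in the 6 IP libraries, against 25.1% of the 617 other entries, 2.26% of let-7 and low-numbered entries and 54.3% of miR-6715 to miR-6895. The 6 libraries sum to 6122631 counts, so that 0 counts allow a level of up to 0.490 raw CPM in this IP. Reaching 10 counts in 3 or more IP libraries was met by 6 members (6.25%), against 53.6% of the others, 87.5% of let-7 and low-numbered entries and 3.70% of miR-6715 to miR-6895. Of the 85 members with 10 or more counts in HEK293 cytoplasm, 84 were lower in the IP than in the cytoplasm in raw CPM, against 385 of 553 others. The IP and the cytoplasm were made into libraries separately and at different depth, so this is a comparison of shares.

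Members that were abundant in HEK293 cytoplasm could be nearly or wholly missing from the IP. miR-4449 had 1524 counts in the 6 cytoplasmic libraries, or 7250 raw CPM, and 0 in the IP, at least 14800-fold lower in the IP by the floor of 3 counts. miR-4687-3p had 0.327 raw CPM in the IP, from 2 counts, and 6120 in the cytoplasm. miR-4800-3p, miR-4516 and miR-4304 had 0 IP counts, at least 3120-fold, 1900-fold and 2070-fold lower than in HEK293 cytoplasm. miR-4284, at 205 raw CPM in the cytoplasm, also had 0. miR-4741 had 38 IP counts, a ratio of IP over cytoplasm of 0.00169 (95% counting interval 0.00118 to 0.00234). Such intervals cover counting error only.

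miR-4787-3p held most of the members' counts in the IP. Of the 4990 counts of the members in the IP, it took 3715 (74.4%), and miR-4664-5p took 584 (11.7%). miR-4787-3p was at 607 raw CPM in the IP and 509 in HEK293 cytoplasm, a ratio of 1.19 (95% counting interval 0.983 to 1.46). miR-4664-5p was at 95.4 against 490 (ratio 0.195, 0.158 to 0.242). The other detected members, miR-4746-5p, miR-4687-5p, miR-4286 and miR-4707-3p, had ratios of 0.137, 0.0641, 0.00664 and 0.0177.

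**Figure D4:**
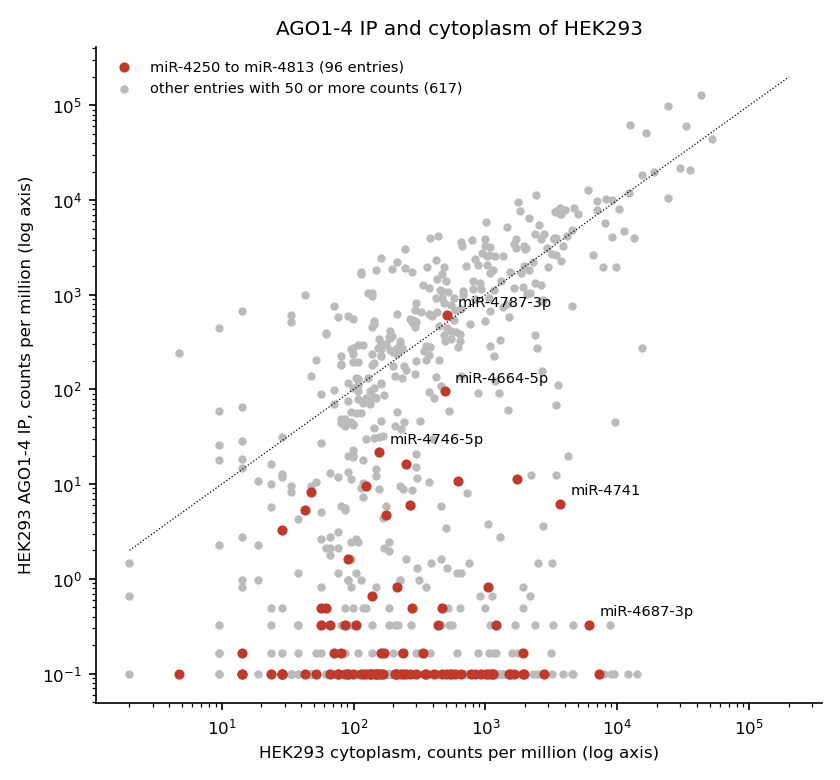
Raw CPM in the AGO1-4 IP (6 libraries pooled) against HEK293 cytoplasm (6 libraries pooled), both on log axes, for the 96 members (red) and 617 other entries with 50 or more counts (grey). IP values under 0.1 are drawn at 0.1 and cytoplasmic values under 2 at 2, and the dotted line marks equal values. miR-4787-3p (ratio 1.19) lies near the line and most members lie at the bottom.

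In the IP, miR-4787-3p, miR-4746-5p and miR-4664-5p were higher at confluence. Of 6 members tested, 3 were higher and 0 lower in confluent cells by edgeR, where 18.4% of all 537 entries tested were higher and 16.8% lower, with medians of 0.43 for the members and 0.00 for all entries. At an unadjusted p under 0.05 and by DESeq2, 0 members were lower. These fits do not pair the libraries, though same-numbered IP libraries deviated together. With the replicate number as a block, miR-4286 was called lower as well, as given below. miR-4787-3p had 699, 818 and 783 CPM in the confluent and 405, 432 and 365 CPM in the subconfluent IP (log2 fold change 0.94, standard error 0.11, adjusted p = 0.00025). miR-4746-5p was at 21.8 CPM or more in every confluent library and at 13.2, 16.2 and 15.9 CPM in the subconfluent ones (log2 fold change 0.81, standard error 0.25, adjusted p = 0.034). miR-4664-5p had 97.7, 107 and 121 CPM against 69.1, 80.9 and 82.6 CPM (log2 fold change 0.49, standard error 0.16, adjusted p = 0.036). In all of these the confluent libraries lay above the subconfluent ones.

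The calls of miR-4746-5p and miR-4664-5p were lost with DESeq2 (adjusted p = 0.17 and 0.11), with no count filter (0.077 and 0.078) and without any 1 of 5 of the 6 IP libraries, confluent replicate 1 being the exception, with adjusted p between 0.061 and 0.11 for miR-4746-5p and between 0.064 and 0.13 for miR-4664-5p. miR-4787-3p kept its call without each library. miR-4286 had 11.4, 7.24 and 6.89 CPM in the confluent and 14.3, 8.63 and 22.2 CPM in the subconfluent IP (log2 fold change -0.84, adjusted p = 0.14). With the replicate number as a block, it passed (log2 fold change -0.82, adjusted p = 0.045), so that 3 members were higher and 1 lower. miR-4707-3p and miR-4687-5p had log2 fold changes of 0.38 and 0.03 and were not called. All members together made 1030 ± 141 raw CPM in the confluent and 568 ± 58.8 in the subconfluent IP (SD, n = 3 each), and without miR-4787-3p 232 ± 30.4 and 181 ± 25.6. The confluent and subconfluent IP libraries carry different index primers, and these cannot be told apart from confluency.

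Of the 9 hairpins with a 5p member and 5 or more IP counts, 4 had more counts from one arm in the IP and from the other in HEK293 cytoplasm. This holds with both confluencies pooled, with intervals on opposite sides of 50%, for miR-4787, miR-4707, miR-4668 and miR-4687. For miR-4707 only the subconfluent cytoplasmic libraries lean to the 5p arm, as given below. A hairpin gives a 5p and a 3p arm, and as a rule 1 of them is kept by AGO. Both arms of these hairpins are members, and they are shown because the 2 arms carry different seeds, in capitals.
miR-4787-5p: gCGGGGGUggcggcggcauccc
miR-4787-3p: gAUGCGCCgcccacugccccgcgc
miR-4707-5p: gCCCCGGCgcgggcggguucugg
miR-4707-3p: aGCCCGCCccagccgagguucu
miR-4687-5p: cAGCCCUCcucccgcacccaaa
miR-4687-3p: uGGCUGUUggagggggcaggc
miR-4668-5p: aGGGAAAAaaaaaaggauuuguc
miR-4668-3p: gAAAAUCCuuuuuguuuuuccag

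The miR-4707 hairpin lies in an exon of HAUS4 (5p arm at chr14:22956998-22957020, minus strand) and miR-4668 in an intron of UGCG (5p arm at chr9:111932100-111932122, plus strand), while miR-4787 and miR-4687 lie in the exons named above. For miR-4787 the 5p arm made 0.134% of the counts of both arms in the IP (95% exact binomial interval 0.0437 to 0.313%), 30.1% in HEK293 nuclei (19.9 to 42.0%) and 67.4% in HEK293 cytoplasm (62.0 to 72.4%). For miR-4707 it made 1.47% in the IP (0.0372 to 7.92%) and 75.8% in the cytoplasm (72.0 to 79.4%). For miR-4668 the 5p arm made 0 of 33 counts in the IP (an upper limit of 10.6%) and 96.4% in the cytoplasm (93.3 to 98.3%). For miR-4687 it made 98.0% in the IP (93.0 to 99.8%) and 3.96% in the cytoplasm (2.98 to 5.15%). In these 4 hairpins the arm with fewer counts in the pooled cytoplasm held nearly all the IP counts. It was the 3p arm in the first 3 and the 5p arm in miR-4687.

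For miR-4746 the 5p arm made 98.5% in the IP (94.7 to 99.8%) and 70.2% in the cytoplasm (55.1 to 82.7%). For miR-4783, of which the 5p arm is a member, it made 1.14% in the IP (0.0288 to 6.17%) and 51.5% in the cytoplasm (33.5 to 69.2%), an interval that spans equal shares. miR-4638 had 10.0% on 10 IP counts (0.253 to 44.5%) and 44.1% in the cytoplasm (27.2 to 62.1%). Not every hairpin differed: miR-4664 had a 5p share of 97.2% in the IP (95.5 to 98.3%) and 96.3% in the cytoplasm (90.7 to 99.0%), and miR-4745, on 9 IP counts, had 44.4% (13.7 to 78.8%) and 39.2% (28.0 to 51.2%). The intervals cover counting error only, and no test over libraries was made of these shares. Hairpins with only a 3p member were not examined for arms, among them those of miR-4728-3p with 58 IP counts and miR-4652-3p with 20.

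**Figure D5:**
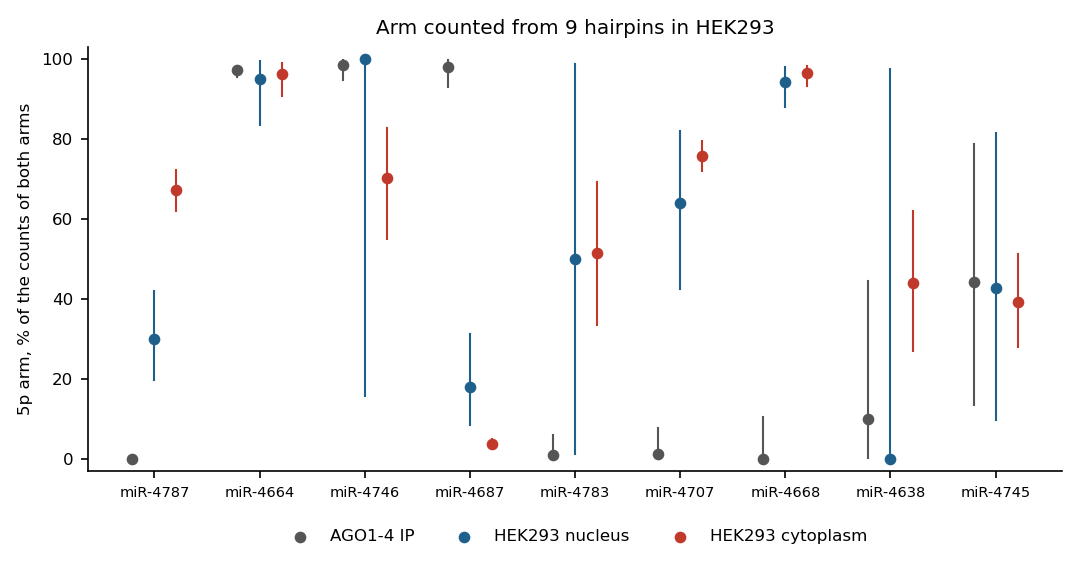
Share of the 5p arm in the counts of both arms, in percent, for the 9 hairpins with a 5p member and 5 or more IP counts. Values are for the AGO1-4 IP, HEK293 nuclei and HEK293 cytoplasm (libraries pooled). The points are shares and the lines 95% exact binomial intervals. For miR-4787 the share is 0.134% in the IP and 67.4% in the cytoplasm, and for miR-4687 98.0% and 3.96%.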

How the data were processed

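Small RNA was sequenced in 42 libraries, and the authors removed adapters with cutadapt, aligned to the human miRNAs with Bowtie2 and took counts per entry with bedtools (tools and the build hg38 from the submitters' processing notes and the paper's methods). The versions of Bowtie2 and bedtools, the mapping options and the miRNA release are not given in the sources used here. The deposited values are raw counts per mature entry, not normalized. Groups came from the labels, and 40 libraries were used. Counts were fitted in R 4.3.3 with edgeR 4.0.16 and limma 3.58.1 (quasi-likelihood test after TMM scaling, p adjusted by Benjamini-Hochberg over all entries tested, threshold 0.05), in 1 fit per line over its 4 groups, 1 fit over the 34 fraction libraries for the lines and 1 fit for the IP, after a filter of 10 counts in 3 libraries. The code was first tested on simulated data. miR-886, without a value in SHSY5Y, was left out where that line enters. IP and cytoplasm were compared on pooled counts with 95% exact intervals, and a fold against 0 counts used a floor of 3 counts over the group.

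Named are the 8 members with the most counts, in each comparison up to 2 members that rose most and 2 that fell most (past the threshold, a mean of at least 300 CPM in the higher group, no overlap), and those with 10 counts in 3 IP libraries; members named for other comparisons, shared seeds or arms are given as examples chosen after their values were seen. The members and lists were chosen with earlier results of these data known. Same-numbered IP libraries deviated together (r = 0.578, 0.339 and 0.386 over 537 entries) and share a 3′ adapter, so their numbers pair them. The p-values given for the IP ignore this pairing unless the block is named. The numbers of the fraction libraries do not. Alternatives were DESeq2 1.42.0, library totals, scaling by the entries detected in the IP, no filter on low counts, the 2 near-empty libraries kept, the replicate block and leaving out each library. Sequences and positions come from RefSeq (GRCh38.p14), and gene context and transcript matches from GENCODE on hg38.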

Additional observations from a re-analysis of the deposited data

Results flagged for a closer look

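For the members below, the effect of confluency differed between the fractions of a line by edgeR's interaction test, with Benjamini-Hochberg adjustment over all entries tested. For the other members tested it did not pass. The share of all entries that passed is not given here, so these are results for single members. The values are the log2 effect in the nucleus minus that in the cytoplasm. In A375 they were -2.80 for miR-4284 (adjusted p = 0.0036), 1.76 for miR-4448 (0.048), 2.20 for miR-4484 (0.032), 5.94 for miR-4687-3p (tested only through its counts in subconfluent cytoplasm), 3.59 for miR-4707-5p (0.0017) and 4.09 for miR-4741 (2.3e-05). In HEK293 they were -2.56 for miR-4668-5p (0.033) and 2.92 for miR-4707-5p (0.046), and in SHSY5Y the value was -2.37 for miR-4800-3p (0.00046).

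In the cytoplasm of different lines, the members below lay on opposite sides with confluency. These differences between lines were not tested, and the share of all entries that did so is not given here. The log2 fold changes of confluent against subconfluent cytoplasm were -1.09 in HEK293 and 1.24 in SHSY5Y for miR-4448, and -4.70 in HEK293 and 1.33 in SHSY5Y for miR-4684-3p, which passed the count filter in HEK293 only through subconfluent cytoplasm. miR-4741 had -1.08 (HEK293), -3.97 (A375) and 2.15 (SHSY5Y), and miR-4800-3p had -1.17 (HEK293), 2.80 (A375) and 3.07 (SHSY5Y).

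The SHSY5Y confluent nuclear library that was left out held 31 counts, 5 of them of members, which is too few for a level.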

How the results depend on the processing

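Of the 44 values of named members, 31 kept their call in every alternative run, 12 lost it in at least 1, and miR-4286 gained it with the block. Over their 546 alternatives, 498 kept the side of the threshold, 47 lost it, 1 gained it and 0 turned direction. Of these values, 14 are of members that passed the count filter only through the group where they were higher, so their calls say nothing about stability. Without the filter on low counts, 21 members were called in A375 cytoplasm (11 with it), 4 in SHSY5Y nuclei (20 with it), and 2 for localization in confluent A375 (4 with it). With scaling by the entries detected in the IP, members called for localization were 18 in confluent HEK293 (11 by TMM over all entries), 9 in subconfluent A375 (14, and 2 higher and 7 lower in place of 6 and 8) and 31 in subconfluent SHSY5Y (19), which library totals also put at 31. These scalings moved the median of all entries by over 0.1 in several comparisons, most in confluent SHSY5Y localization, to -0.88. In the other comparisons the balance of members moved with the scaling in A375 against HEK293 (30 higher and 9 lower with IP scaling) and in confluent A375 localization (2 higher and 1 lower with library totals). In the IP, DESeq2 called 1 member in place of 3. The cause of these shifts was not tested.

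Leaving out 1 library, the members called ranged from 8 to 17 in HEK293 cytoplasm, 0 to 1 in HEK293 nuclei, 9 to 11 in A375 cytoplasm, 4 to 9 in A375 nuclei, 24 to 32 in SHSY5Y cytoplasm and 3 to 14 in SHSY5Y nuclei. For localization they ranged from 15 to 25 and 5 to 11 in subconfluent and confluent HEK293, 4 to 12 and 1 to 6 in A375, and 16 to 27 and 16 to 24 in SHSY5Y. Between lines they ranged from 35 to 44 in A375 against HEK293, 43 to 48 in SHSY5Y against HEK293 and 28 to 31 in A375 against SHSY5Y, and in the IP from 1 to 3. With the replicate block, 4 members were called in the IP in place of 3. The numbers of the fraction libraries share only a number, and with the block the members called for confluency were 18 in the cytoplasm and 1 in the nuclei of HEK293, against 12 and 10 for A375, while SHSY5Y had 30 and 23.

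Depth limits the fraction results: 41 of the 96 members have fewer than 100 counts over 34 libraries, and most members were under the count filter in each line. Groups rest on 2 or 3 libraries, and the confluent nuclei of HEK293 and SHSY5Y on 2.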
